A study of Mus musculus with 3 samples.

Results

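Collagens are the triple-helical proteins of the extracellular matrix, and 4 of their genes were followed here in sections of wild-type mouse embryos: Col1a2 and Col5a2, which encode chains of fibrillar collagens, and Col15a1 and Col18a1, which encode collagens of the basement membrane zone. They were taken by name from a panel of 296 genes, in which Col4a1 is the remaining collagen gene. RNA molecules were counted by MERFISH, an imaging method that reads a barcode for each molecule in place and assigns it to a segmented cell. The design gives 2 sagittal sections from different wild-type embryos at embryonic day (E) 9.5 and 1 sagittal section from a wild-type embryo at E15.5. Values below are from cells with at least 10 panel counts, 830 and 6334 cells in E9.5 sections 1 and 2 and 195915 cells at E15.5. No cell identifier was shared between sections.

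Fibrillar collagens assemble into the rope-like fibres of connective tissue. Col1a2 encodes the alpha 2 chain of type I collagen, the main fibre of skin, tendon and bone, and Col5a2 a chain of type V collagen, a minor partner that helps to start type I fibres and to set their width. Basement membranes are thin sheets under epithelia and around vessels, muscle and nerve. Types XV and XVIII collagen, from Col15a1 and Col18a1, are related proteoglycans that link such sheets to the tissue around them, and the end of type XVIII collagen can be released as endostatin, an inhibitor of vessel growth.

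One promoter of each class is shown, because the 2 classes were followed as separate groups of genes. The 250 bases before the annotated start are given 5′ to 3′ on the gene's strand, from RefSeq with build GRCm38.p6, with matches to CCAAT or GGGCGG on either strand in capitals.
Col1a2: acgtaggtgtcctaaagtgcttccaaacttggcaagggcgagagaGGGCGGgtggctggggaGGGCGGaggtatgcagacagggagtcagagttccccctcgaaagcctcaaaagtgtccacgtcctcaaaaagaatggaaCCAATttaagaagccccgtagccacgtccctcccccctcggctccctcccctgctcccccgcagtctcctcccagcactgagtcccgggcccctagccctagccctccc
Col18a1: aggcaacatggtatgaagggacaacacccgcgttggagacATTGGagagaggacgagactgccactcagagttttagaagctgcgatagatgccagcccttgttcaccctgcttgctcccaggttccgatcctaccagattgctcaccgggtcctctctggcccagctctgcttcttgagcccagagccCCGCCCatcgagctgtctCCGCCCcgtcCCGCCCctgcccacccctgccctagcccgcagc
The Col1a2 window is chr6:4505368-4505617 on the plus strand, before a gene that spans 4505618 to 4541543. The Col18a1 window is chr10:77166531-77166780 on the minus strand, before a gene that spans 77052178 to 77166530. CCAAT was found 1 time in each window, and GGGCGG 2 times in that of Col1a2 and 3 times in that of Col18a1. Neither held TATAAA. Among 32851 mouse windows of the same length, 33.8% held CCAAT, 32.7% GGGCGG and 12.4% TATAAA. RefSeq lists a second start for Col18a1 within the gene, at a window of chr10:77113706-77113955, and a window for Col15a1 at chr4:47207762-47208011 that lies inside the annotated gene, and none of the 3 motifs was in either. Counts here are per gene and do not separate the starts. Col5a2, at chr1:45374331-45503282, was matched in the gene table only.

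The panel counts were 68572 and 1034730 in the E9.5 sections and 21227345 at E15.5, with median counts per cell of 61, 128 and 84. Levels are given as counts per 1000000 panel counts (CPM), with 95% Poisson intervals that cover counting error only. The 19 blank barcodes, which match no gene, had a mean of 239, 149 and 159 CPM per code and a highest code of 685, 380 and 449 CPM in the same order, and these are the background for each value. In both E9.5 sections, areas where the 30 nearest cells held under 1% Gnas counts stood apart from the rest, with 416 of 830 and 2830 of 6334 cells. Results at E9.5 are therefore also given without them.

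Of the 4 members, Col18a1 alone was called between the stages, and this call was lost under another scaling. Col18a1 was at 7831 CPM (7183 to 8522, 537 counts) and 8236 CPM (8062 to 8413, 8522 counts) in E9.5 sections 1 and 2 and at 1749 CPM (1731 to 1767, 37130 counts) at E15.5. Both E9.5 sections lay above the E15.5 section, by 4.48 times and 4.71 times. In edgeR's quasi-likelihood test its log2 difference was -2.19 (SE 0.74, adjusted p = 0.0314). In the same test 44 of 296 genes were called, 14.9%, of which 9.46% of all genes were higher and 5.41% lower at E15.5. With 3 sections an exact permutation test cannot go below p = 0.333, and the spread in the edgeR test comes from the E9.5 pair alone. That spread was pooled over all genes, with no weight on the difference of Col18a1 itself between the pair. Its adjusted p is therefore no measure of the spread of this gene. With upper-quartile scaling the adjusted p was 0.157. Each section cuts different amounts of each tissue, and neither the part of this nor that of fewer cells against less RNA per cell was tested.

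Col15a1 had the opposite order. It was at 569 CPM (39 counts) and 203 CPM (210 counts) at E9.5 and at 2131 CPM (45237 counts) at E15.5. The E9.5 values were below the highest blank code of their sections, while the E15.5 value was above it. The difference was 2.54 on the log2 scale (SE 1.00) and did not pass edgeR's test (adjusted p = 0.0732), while DESeq2 called it (adjusted p = 0.00235). The E15.5 level was 3.11 times the highest blank code of section 1 and 5.61 times that of section 2. Its ratio to the Col15a1 levels themselves was 3.75 (2.74 to 5.27) and 10.5 (9.17 to 12.1). Without areas of low Gnas the E15.5 level was 2.40 times the section 1 level of 887 CPM, which passed the highest blank code there (623 CPM). It was 5.83 times the highest blank code of section 2.

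The fibrillar collagens gave no order by stage. Col1a2 was at 9858 CPM in E9.5 section 1, 2941 CPM in section 2 and 8999 CPM at E15.5, so that the E15.5 value lay between the E9.5 values (log2 difference 0.52, SE 0.62, edgeR adjusted p = 0.691). Col5a2 was at 7292, 5151 and 6395 CPM in the same order and likewise overlapped (0.06, SE 0.65, adjusted p = 0.970). Without the areas of low Gnas the log2 differences were -0.20 and -0.39, of opposite sign and not called.

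**Figure D1:**
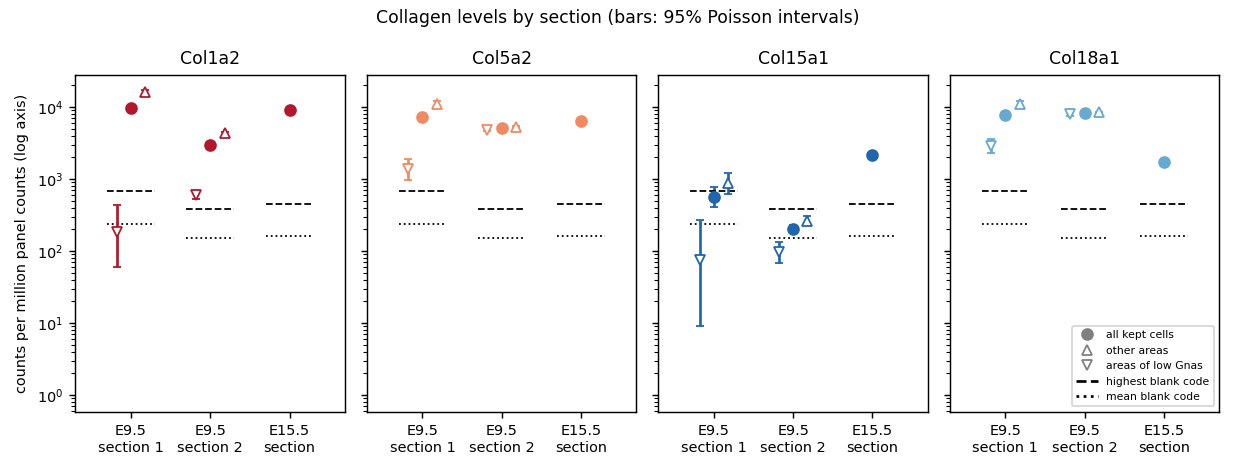
Levels of the 4 collagens in each section as CPM on a log axis, with 95% Poisson intervals and the mean and highest blank code as dotted and dashed lines. Open triangles split the E9.5 sections into areas of low Gnas and the other areas. Col18a1 was higher in both E9.5 sections than at E15.5, and Col15a1 over all kept E9.5 cells lay within the range of the blank codes.

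The areas of low Gnas held little Col1a2. In E9.5 section 1 it had 5 counts there (186 CPM) and 671 counts elsewhere (16088 CPM), and in section 2 it was at 599 CPM there and 4305 CPM elsewhere. Col1a2 had the largest ratio of all 215 genes with at least 30 counts in section 1, and was 15th of 295 in section 2. Col5a2 was at 1377 against 11101 CPM in section 1, but at 4852 against 5325 CPM in section 2. Col18a1 was at 2904 against 11005 CPM and at 7893 against 8436 CPM. In section 2, then, Col1a2 differed between these areas and Col5a2 hardly did. Over all genes with at least 30 counts, 34.0% in section 1 and 22.7% in section 2 were at least 2 times higher outside the areas.

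The fibrillar share, the counts of Col1a2 and Col5a2 out of those of all 4 members, was 67.1% in E9.5 section 1 (95% Clopper-Pearson interval 64.9 to 69.3), 49.0% in section 2 (48.2 to 49.7) and 79.9% at E15.5. Its size depends on how well each gene's probes work, so it is compared between cells and not read as a protein ratio. Both E9.5 sections lay below the E15.5 section. Without areas of low Gnas they were at 69.6% and 52.5%.

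Among 21 other genes of the extracellular matrix in the panel, 7 rose and 0 fell from E9.5 to E15.5 in edgeR's test. Over all 296 genes 9.46% were called higher and 5.41% lower. The median log2 difference of the 21 was 0.84 against -0.15 over all 296 genes. This list was chosen with earlier results of these data known. The 7 were Cytl1 (3.82), Mgp (3.01), Lox (2.91), Dcn (2.68), Fibin (2.61), Bgn (2.53) and Spock2 (2.46). Lox encodes lysyl oxidase, which cross-links collagen, and Dcn and Bgn encode small proteoglycans that bind fibrils. Col4a1, which encodes a chain of the type IV network, was at 5002 and 21725 CPM at E9.5 and 18683 CPM at E15.5, again with the E15.5 section between the others.

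To see which cells held the collagens, cells were clustered on the 292 other genes. At E15.5 this gave 31 groups, 9 of them shallow (16313 cells, with group medians of 15 to 25 panel counts) and not read further. As there is 1 section at E15.5, groups were compared by size with counting intervals, without a test. Both fibrillar collagens were highest in a small group with Lox and Unc5b among its leading genes (1357 cells), at 73991 CPM for Col1a2 (10600 counts) and 84140 CPM for Col5a2 (12054 counts). Its cells were 0.693% of the section and held 5.55% of the Col1a2 and 8.88% of the Col5a2 counts. The cells were uneven, with a median of 3 Col1a2 counts, a 90th percentile of 22 and 344 cells at 0. One blank barcode reached 5005 CPM there against 225 CPM elsewhere, and its part in these levels was not tested.

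Below that group, Col1a2 was at 20250 CPM in the largest group, led by Dcn, Dkk2 and Cd248 (22244 cells), which held 32.7% of its counts. It was at 17567 CPM in the Vtn, Cldn5 and Pltp group, 17283 CPM in the Stra6 and Foxd1 group, 16053 CPM in the mesenchyme-like group and 14428 CPM in the mural-like group. The intervals of the Vtn group (17163 to 17977) and the Stra6 group (16919 to 17654) overlapped, so these neighbours were not separated. The mural-like group was led by Myh11, Foxf1 and Gata5, and Myh11 encodes smooth muscle myosin. Its name comes from the marker rule, and whether its cells belong to vessel walls was not tested. Dcn is a gene of fibroblasts. Col5a2 was at 12847, 4197, 8450, 13505 and 9561 CPM in the same groups, with its lowest level of the 5 in the Vtn group. The mesenchyme-like group has its name from the marker rule only, and Cytl1 led it. Its 4 mesenchyme markers together were at 15241 CPM, against 38736 CPM in the Dcn group and 57627 CPM in the Stra6 group. The cartilage list had 1 gene in the panel, so the rule of 3 markers could not give that name.

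At the other end, the pair of neuronal-like groups had 214 and 256 CPM of Col1a2 and 298 and 300 CPM of Col5a2, below their highest blank codes of 389 and 529 CPM. The Fabp7 and Slc1a3 group, led by genes of radial glia, had 175 CPM of Col1a2 and 1063 CPM of Col5a2. Its highest blank code was at 602 CPM, above the Col1a2 level. Macrophage-like cells had 8705 and 5288 CPM of the pair, against 8999 and 6395 CPM in the whole section, and 19620 CPM of the 4 mesenchyme markers together. Whether counts of neighbouring cells contributed was not tested.

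Col15a1 and Col18a1 were highest in different groups. Col15a1 reached 16934 CPM (2936 counts) in a group led by Spint2 and Ccnd1 (642 cells), 8.43 times the level in all other cells, and 54.0% of these cells lay within one square millimetre of the section. In that group Col18a1 was at 1534 CPM and the fibrillar share was 6.0% (5.3 to 6.9), the lowest of all groups read. Next were the Cytl1, Cthrc1 and Mgp group at 5269 CPM, whose Cytl1 and Mgp are genes of cartilage, and the endothelial-like group at 5111 CPM, whose intervals overlapped. The mesenchyme-like group followed at 3712 CPM and the Pdlim3, Gja5 and Cdkn1a group at 3427 CPM.

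Col18a1 was highest in 2 other Spint2 groups. Spint2 encodes a protease inhibitor of epithelia. The level was 10065 CPM (3148 counts) in the Spint2, Fam174b and Wfdc2 group (1753 cells) and 7122 CPM in the Wnt4 and Spint2 group (6111 cells), with non-overlapping intervals (9717 to 10423 and 6924 to 7323). The Wnt4 and Foxd1 group had 4705 CPM and the endothelial-like group 4395 CPM. In the Spint2 and Wfdc2 group Col15a1 was at 771 CPM, and in the Wnt4 and Spint2 group at 178 CPM, below the highest blank code of 380 CPM. In the Cytl1, Cthrc1 and Mgp group Col18a1 was at 308 CPM. Of the 22 groups read, the endothelial-like group alone was among the 4 highest for both basement membrane collagens.

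**Figure D2:**
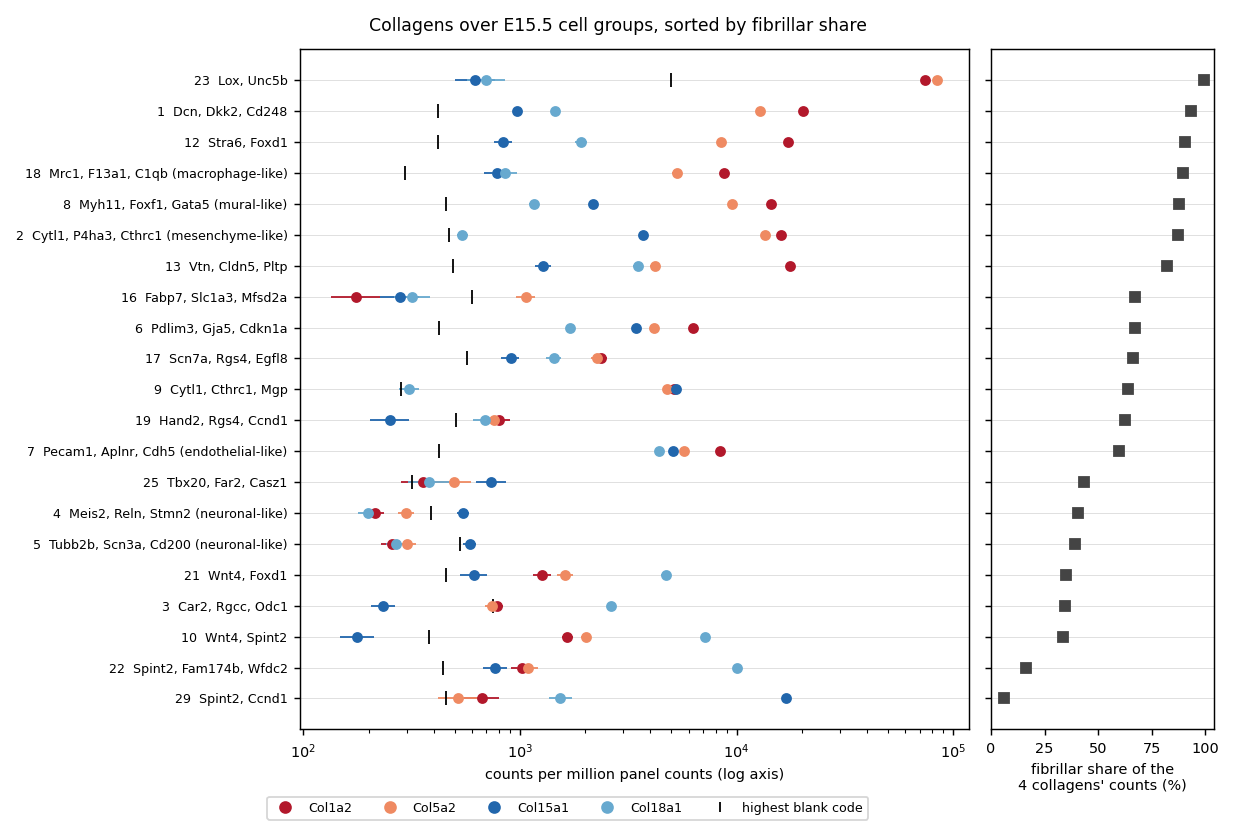
Levels of the 4 collagens in E15.5 cell groups of sufficient depth and collagen count, as CPM on a log axis with 95% Poisson intervals, beside the fibrillar share of their counts in percent. Black ticks mark the highest blank code of each group. The fibrillar share ran from 6.0% in the Spint2 and Ccnd1 group to 99.2% in the Lox and Unc5b group, and Col15a1 and Col18a1 peaked in different groups.

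Over the 30 E15.5 groups with at least 200 cells, Col1a2 and Col5a2 followed each other closely (Pearson r = 0.95 of log2(CPM + 10)). Col15a1 and Col18a1 had r = 0.20. These correlations describe groups of 1 library that share its depth, shallow groups among them, and have no p. Apart from each other, the genes most like Col1a2 were Lox (0.95), Bgn (0.94), Cd248 (0.86), Fn1 (0.86) and Klf4 (0.85), and Col5a2 had the same 5 with Lox first (0.96). Those of Col15a1 were less close, Itm2a (0.72), Dlk1 (0.69), Cdkn1c (0.67), Fstl1 (0.63) and Anxa6 (0.62). Col18a1 was most like Npr3 (0.80), Col4a1 (0.77), Pimreg (0.75), Top2a (0.74) and Cenpe (0.72), the last 3 of which are genes of dividing cells.

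Over the 16 E9.5 groups of that size Lox was not close to Col1a2 (-0.43) or Col5a2 (-0.48), while Cd248 was at 0.91 and 0.63. The E9.5 group led by Lox, Flrt2 and Bgn (123 cells) was too small to be among these groups. It made up 1.72% of E9.5 cells and held 8.58% of Col1a2 and 3.28% of Col5a2 counts. The values for Lox therefore leave out a group in which Lox and both fibrillar collagens were high together. Top2a was at 0.86 and Col4a1 at 0.70 with Col18a1. Col1a2 and Col5a2 had r = 0.67, and Col5a2 and Col18a1 0.89.

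Among single cells at E15.5, Col5a2 was higher in cells with more Col1a2 counts and Col18a1 was nearly level. Cells without a Col1a2 count had 2489 CPM of Col5a2, those with 1 count 6237 CPM, those with 2 to 4 counts 10422 CPM and those with 5 or more 19676 CPM. Col18a1 was at 1794, 1846, 1690 and 1632 CPM. Col15a1 was at 1925, 3086, 2476 and 1374 CPM, with its highest level at 1 count. Median depth also differed, from 63 panel counts in cells without Col1a2 to 195 in those with 5 or more, and its part was not tested. In E9.5 section 1 Col18a1 went up over these steps, from 5157 CPM in cells without Col1a2 to 18421 CPM at 5 or more counts. In section 2 it was at 7763, 8463, 8281 and 14161 CPM, with most of the rise in the 165 cells of the last step. Col5a2 went from 1326 to 33300 CPM in section 1 and from 4171 to 14546 CPM in section 2.

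At E9.5 clustering gave 27 groups, 2 of them shallow. The group led by Dkk2, Epas1 and Esm1 (525 cells) held 50.4% of Col1a2 and 26.8% of Col5a2 counts, and was high in both sections. Col1a2 was at 29397 CPM there in section 1 and 15123 CPM in section 2, Col5a2 at 20373 and 13719 CPM, and Col18a1 at 14721 and 17562 CPM. The Col18a1 level of this group was 1.88 times that of all cells in section 1 and 2.13 times in section 2. Other E9.5 groups rich in Col1a2 had Col18a1 below the section's level, at 0.710 times for the Lox, Flrt2 and Bgn group and 0.304 times for the Foxd1, Cxcl12 and Stra6 group in section 2. Of the 4 E15.5 groups highest in Col1a2, the Vtn group was at 2.01 times its section's Col18a1 level and the others at 0.399 to 1.09 times. The Lox, Flrt2 and Bgn group (123 cells, 121 of them in section 2) had 15077 CPM of Col1a2, 9027 CPM of Col5a2 and the highest fibrillar share of the groups with at least 50 collagen counts, 79.8% (76.5 to 82.9).

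The fibrillar pair separated in the group led by Nkx2-3, Foxf1 and Aplnr (185 cells, 184 in section 2). Foxf1 encodes a transcription factor of the mesoderm around the gut. Col5a2 was at its highest there, 21656 CPM (637 counts), while Col1a2 was at 1394 CPM (41 counts). Of these cells 67.6% lay in areas of low Gnas, and in the 60 cells of section 2 outside such areas the values were 18238 and 1779 CPM. The Gata4, Asb4 and Gata5 group had 9505 CPM of Col5a2 and 3973 CPM of Col1a2.

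Col18a1 was highest in the Nkx2-3, Spint2 and Edn1 group, at 19251 CPM in section 1 (43 cells) and 25900 CPM in section 2 (276 cells). Outside areas of low Gnas these were 18827 and 21862 CPM. After the Dkk2 group, it was at 13528 CPM in the Stmn2, Spint2 and Mecom group, 12897 CPM in the Htra1, Spint2 and Vtn group and 12705 CPM in the Fabp7 and Crabp1 group. The intervals of these 3 overlapped, and the Fabp7 group differed between sections, at 6921 and 13267 CPM. The lowest fibrillar share was 8.8% (6.3 to 11.7), in the Stmn2 and Spint2 group. Groups with Spint2 among their leading genes thus held high Col18a1 at both stages, with the exception of the E15.5 group led by Spint2 and Ccnd1. The Fabp7 group of E9.5 stood far above the Fabp7 and Slc1a3 group of E15.5, whose 318 CPM lay below its highest blank code of 602 CPM. The groups were made separately at each stage and were not tested against each other. Col15a1 exceeded the highest blank code in 3 of 25 groups at E9.5 and in 16 of 22 at E15.5.

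**Figure D3:**
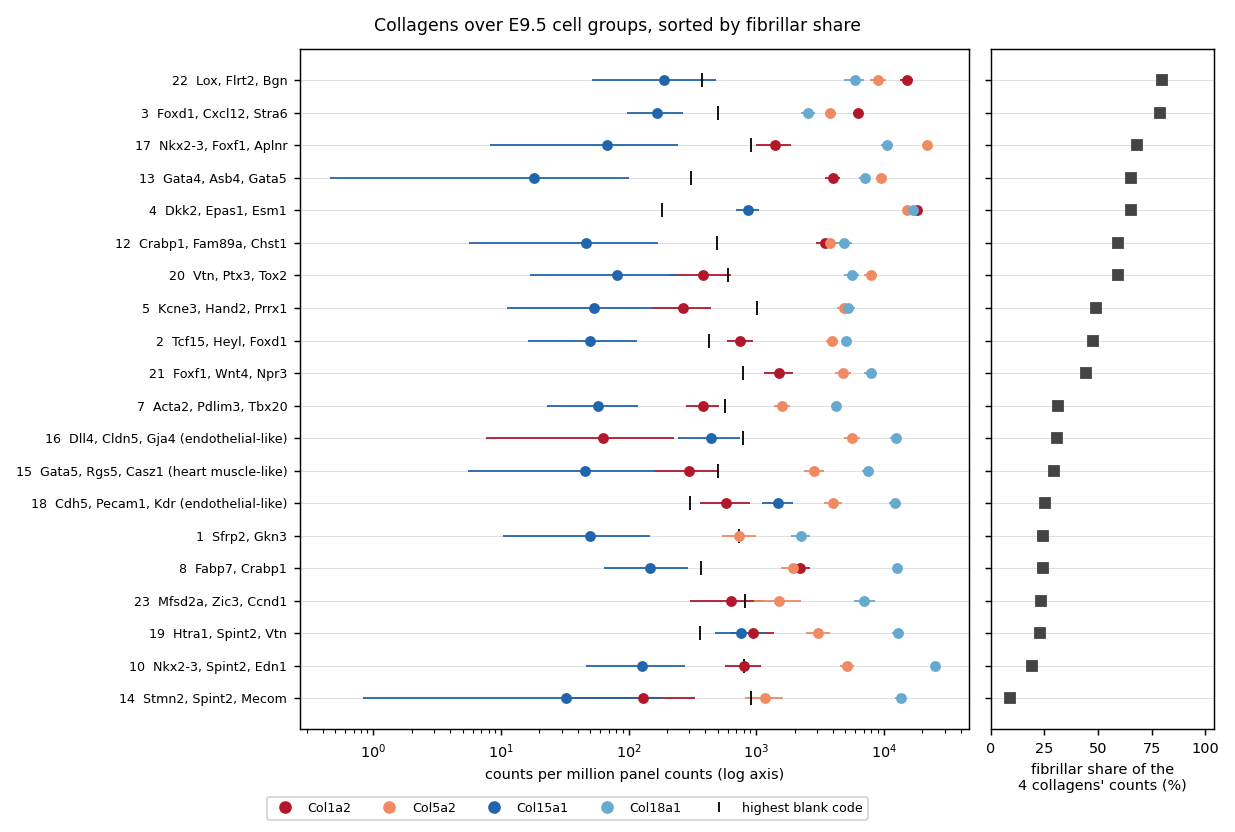
Levels of the 4 collagens in E9.5 cell groups with at least 50 collagen counts, both sections together, as CPM on a log axis with 95% Poisson intervals, beside the fibrillar share in percent. Black ticks mark the highest blank code of each group. Col18a1 was high in most groups, and Col5a2 peaked in the Nkx2-3, Foxf1 and Aplnr group, where Col1a2 was at 1394 CPM.

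Endothelial cells, the subject of the study's title, line the vessels on a basement membrane, and endothelial-like groups were named from 6 markers. There were 24 such cells in E9.5 section 1, 344 in section 2 and 15476 at E15.5, of which 3, 193 and 4825 carried at least 3 marker counts from 2 or more markers. Section 1 had 0 counts of Col1a2, Col5a2 and Col15a1 and 7 of Col18a1 in these cells, and gives little information. In section 2 Col1a2 was at 349 CPM (23 counts), below the highest blank code of these cells (470 CPM), against 3117 CPM in other cells. Col15a1 was at 1017 CPM (67 counts) against 148 CPM in other cells. The level in other cells was below their highest blank code of 379 CPM, and 1017 CPM was 2.68 times that code. Col18a1 was at 12476 against 7948 CPM, 1.57 times (1.46 to 1.69). Col5a2 was at 4917 against 5167 CPM, a ratio of 0.952 whose interval held 1 (0.848 to 1.07). In the 156 of these cells outside areas of low Gnas the ratios were 0.128 for Col1a2, 1.58 for Col18a1 and 0.801 for Col5a2 (0.675 to 0.945). Col15a1 was there at 3.22 times the highest blank code of the other cells. The 13 cells of section 1 picked by marker counts alone, from any group, had 18433 CPM of Col1a2 (36 counts) against 9607 CPM in other cells, 1.92 times (1.33 to 2.68).

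At E15.5 the basement membrane collagens were again higher in endothelial-like cells. Col15a1 was at 5111 against 1897 CPM (2.69 times, 2.63 to 2.76) and Col18a1 at 4395 against 1541 CPM (2.85 times, 2.78 to 2.93). Col1a2 was at 8426 against 9044 CPM and Col5a2 at 5742 against 6447 CPM, both slightly lower. In the 4825 cells with marker counts Col15a1 was at 8207 CPM and Col1a2 at 6854 CPM, and the fibrillar share was 48.0% against 59.8% in all endothelial-like cells and 81.8% in other cells. The endothelial-like cells also had 13587 CPM of mesenchyme markers. The Vtn, Cldn5 and Pltp group, left unnamed, had more endothelial marker counts (53319 against 31723 CPM), with 43231 CPM of mural markers. It was counted among the other cells and had 17567 CPM of Col1a2. The contrast with this group on the endothelial side was not tested, so the small Col1a2 difference holds for the named group only.

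Over the 3 sections none of the 4 members passed edgeR's test between endothelial-like and other cells, and the same was true of the 290 genes that were not markers (0% called, 38 at an unadjusted p under 0.05, 39 called by DESeq2). Col1a2 was lower in endothelial-like cells in 3 of 3 sections with this grouping, but higher in section 1 with marker counts alone (1.92 times) and at E15.5 with resolution 0.5 (1.27 times). At resolution 0.5 an endothelial-like group of 21835 cells was led by Myh11, the gene that led the mural-like group at resolution 1. The test of Col1a2 was not passed (log2 difference -2.48, SE 1.06, adjusted p = 0.337). It was called with DESeq2 (adjusted p = 0.0210), with upper-quartile scaling (0.0216) and without the E15.5 section (0.0100). Over all its alternatives the adjusted p ran from 0.0100 to 0.746, with 0.741 and a log2 difference of -0.25 when cells were picked by marker counts alone. Col15a1 was higher in section 2 and at E15.5 (1.47, SE 0.86, adjusted p = 0.440).

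The difference between stages in that contrast was also tested, and no gene was called among 290 (0%, 18 at an unadjusted p under 0.05, 9 by DESeq2). For Col1a2 it was 3.91 on the log2 scale (SE 1.42, adjusted p = 0.744). Between the endothelial-like cells of the stages themselves no gene was called either (0% of 290, 19 at an unadjusted p under 0.05, 0 by DESeq2). Set by size, section 2 and E15.5 had 349 and 8426 CPM of Col1a2 and 1017 and 5111 CPM of Col15a1. The value of 349 CPM lay below the highest blank code of those cells (470 CPM). For Col18a1 section 2 and E15.5 had 12476 and 4395 CPM. Section 1 was at 4302 CPM of Col18a1 (7 counts, 1730 to 8865), an interval that held the E15.5 value.

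Within endothelial-like cells Col15a1 was concentrated. At E15.5 the subgroup led by Aplnr, Pcdh17 and Gpihbp1 (2839 cells) had 14147 CPM (5496 counts) against 2080 CPM in all other endothelial-like cells, and the other 9 subgroups had 766 to 3027 CPM. Gpihbp1 carries lipoprotein lipase onto capillary endothelium. Of these cells 81.9% passed the marker count, and their Col18a1 level was 4273 CPM, near the 4436 CPM of the rest. Col18a1 was instead highest in the Egfl8, Fabp7 and Adgrg6 subgroup (9457 CPM), of which only 3.6% of cells passed the marker count, and in the Lyve1, Tc2n and Prox1 subgroup (7641 CPM, 7132 to 8176), of which 77.6% did. Lyve1 and Prox1 mark lymphatic vessels, and Col15a1 was at 2200 CPM in that subgroup.

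At E9.5 subgroups were small, with 32 to 65 cells. Col15a1 was at 3307 CPM (22 counts, 2072 to 5006) in the subgroup led by Gja5, Tmem100 and Depp1, genes of arteries, and at 2126 CPM (32 counts, 1454 to 3001) in that led by Tll1, Sgk1 and Nrp2. These intervals overlapped. These subgroups held 54 of the 67 Col15a1 counts, and 3 others had 0. Col18a1 was between 4317 and 19483 CPM in all 8, and Col1a2 at most 703 CPM.

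**Figure D4:**
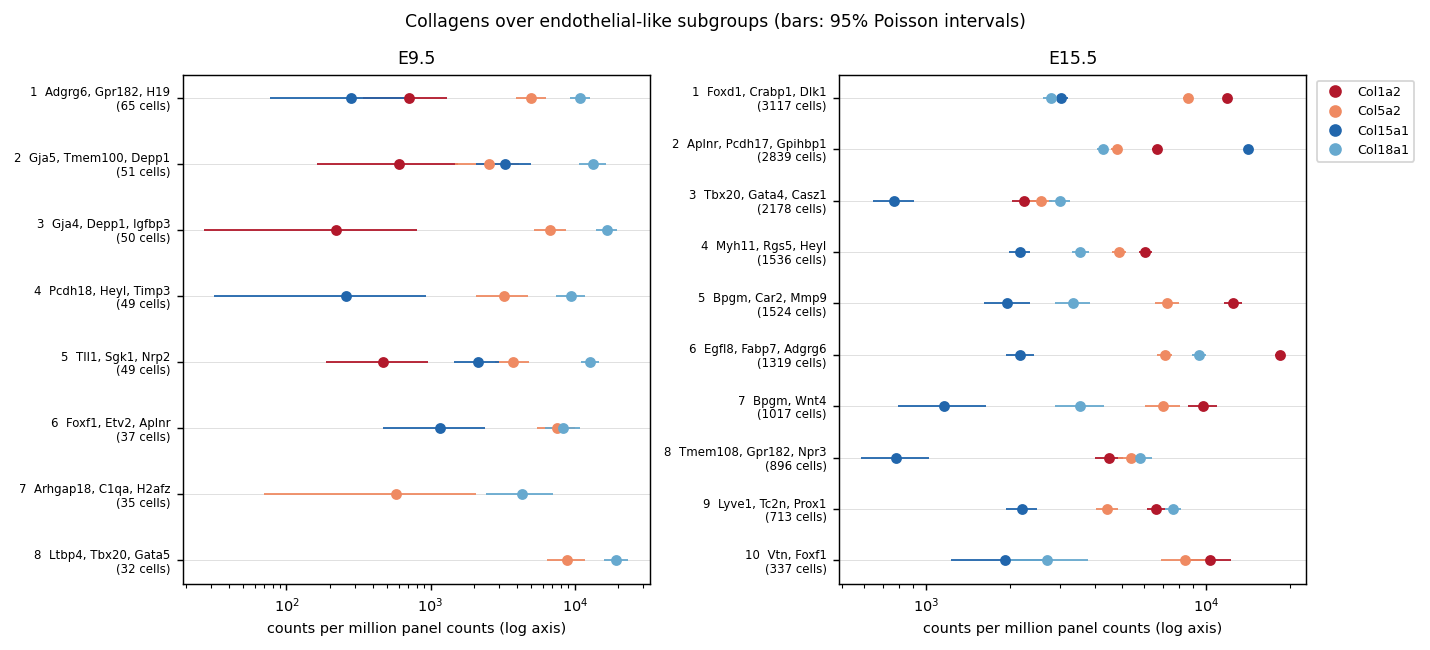
Levels of the 4 collagens in subgroups of endothelial-like cells at E9.5 and E15.5, as CPM on log axes of different range, with 95% Poisson intervals; members at 0 counts are not drawn. Col15a1 reached 14147 CPM in the Aplnr, Pcdh17 and Gpihbp1 subgroup at E15.5, against at most 3027 CPM in the others.

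Over the E15.5 section the fibrillar pair shared its places. In 3240 tiles of 100 µm with at least 5 cells, Col1a2 and Col5a2 had a Spearman correlation of 0.85, and Col15a1 and Col18a1 one of 0.03. Fibrillar with basement membrane genes ranged from 0.25 to 0.48. In E9.5 section 2 (141 tiles) the same values were 0.52 for the fibrillar pair and 0.14 for the basement membrane pair. In section 1 (30 tiles) they were 0.71 and 0.40. Tiles share a library and neighbouring tissue, so these values are descriptions.

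The tenth of E15.5 tiles with the most counts held 50.4% of Col1a2, 53.4% of Col5a2, 59.6% of Col15a1 and 42.5% of Col18a1 counts, where the tenth with the most panel counts held 29.5%. Col15a1 was thus the most concentrated and Col18a1 the most evenly spread of the 4. In 1 mm bands along the y axis of the section image Col1a2 ran from 1940 CPM between 7 and 8 mm to 13177 CPM between 4 and 5 mm. Col5a2 and Col15a1 also peaked between 4 and 5 mm, at 10304 and 3175 CPM, while Col18a1 peaked between 3 and 4 mm, at 3095 CPM, and was at 1683 CPM between 4 and 5 mm.

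**Figure D5:**
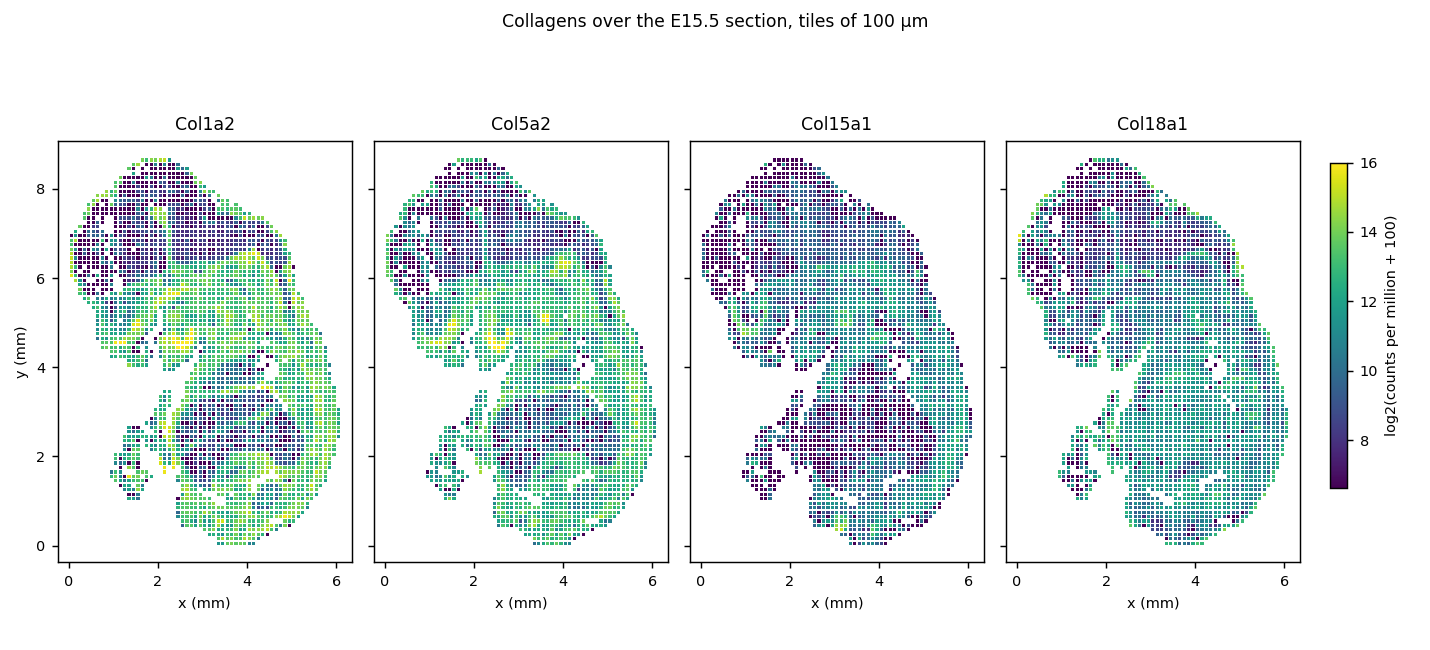
The 4 collagens in tiles of 100 µm over the E15.5 section, with position in mm and colour as log2(CPM + 100). Col1a2 and Col5a2 shared their bright and dark areas (Spearman 0.85 over 3240 tiles), and Col15a1 and Col18a1 did not (0.03).

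Distance was measured from each other cell's centre to the nearest centre of an endothelial-like cell. It is no measure of distance from all vessels, since the Vtn, Cldn5 and Pltp group (3072 cells) was not part of the reference and 4825 of the 15476 reference cells passed the marker count. At E15.5 Col1a2 was at 14909 CPM within 10 µm, 14246 CPM at 10 to 20 µm, 11620 CPM at 20 to 40 µm, 6839 CPM at 40 to 80 µm and 918 CPM beyond. Col5a2 went from 10330 to 777 CPM over the same steps and Col18a1 from 2126 to 597 CPM. Col15a1 had its highest level at 40 to 80 µm, 2636 CPM, against 1871 CPM within 10 µm. The fibrillar share was 86.3% within 10 µm and 56.1% beyond 80 µm.

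In the E9.5 sections Col1a2 was lower near endothelial-like cells, but in section 1 this rested on the choice of reference. Col1a2 was at 1107 CPM within 10 µm and 5180 CPM beyond 80 µm in section 2, and had 2 counts within 20 µm and 595 counts beyond 80 µm in section 1. Near cells, within 20 µm, had 0.0326 times the level of all farther cells in section 1 (2 near counts), 0.348 times in section 2 (0.306 to 0.395) and 2.06 times at E15.5 (2.04 to 2.08). With cells picked by marker counts as the reference (13, 357 and 11835 cells) the ratios were 1.05 (0.778 to 1.39), 0.556 (0.505 to 0.612) and 1.54 (1.52 to 1.55), so that section 1 no longer lay below 1. In edgeR's test over the 3 sections none of the 4 members was called between near and far cells (0% of 296 genes, 10 at an unadjusted p under 0.05, 2 called by DESeq2). The log2 differences were -1.41 for Col1a2, -0.29 for Col5a2, -0.70 for Col15a1 and -0.47 for Col18a1.

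Near and far cells differ in type, so they were also compared within each E15.5 group, below 20 µm against at least 40 µm. There were 18 groups with at least 50 cells on each side, and a group was counted for a member only where its level lay above the group's highest blank code, a limit set after the data were seen that left out both neuronal-like groups for the fibrillar pair. For Col1a2, near cells were higher in 12 and lower in 2 of 16 groups, by intervals that left out 1. For Col5a2 they were higher in 12 and lower in 1 of 15. For Col18a1 the counts were 11 and 2 of 15, and for Col15a1 5 and 4 of 14. The limit used the level of the whole group, so a group could pass with 1 side below its blank code. For Col18a1 far cells were at 201 CPM in the Cytl1, Cthrc1 and Mgp group (highest blank code 284 CPM). They were at 330 CPM in the mesenchyme-like group (471 CPM), and both groups were counted as higher near. The median near-to-far ratio was 1.58 for Col1a2, 1.497 for Col5a2, 0.913 for Col15a1 and 1.53 for Col18a1. In the Dcn, Dkk2 and Cd248 group, which held the most Col1a2 counts, near and far cells had 20021 and 21385 CPM.

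In 2 groups led by Cytl1 the members stood apart. The mesenchyme-like group, led by Cytl1, P4ha3 and Cthrc1, was the larger, and its near cells (9329) had 19783 CPM of Col1a2, 17008 CPM of Col5a2 and 774 CPM of Col18a1, and its far cells (4398) had 9319, 6467 and 330 CPM, the last below the group's highest blank code. Col15a1 ran the other way, at 1830 CPM near and 7097 CPM far, a ratio of 0.258 (0.243 to 0.274). The Cytl1, Cthrc1 and Mgp group had near-to-far ratios of 2.31 for Col1a2, 3.13 for Col5a2 and 0.766 for Col15a1 (0.702 to 0.833).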

How the data were processed

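MERFISH counts were made on the Vizgen MERSCOPE platform, which did the imaging, decoding and segmentation, per the labels (versions: not given in the sources used here). Deposited tables hold raw counts per cell for 296 genes and 19 blank codes, and the deposited metadata give cell volumes and centre positions, read here as micrometres. Scanpy and Seurat are named in the submitters' processing notes. Cells with under 10 panel counts were left out. The members and lists were chosen with earlier results of these data known.

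Cells were clustered per stage without the 4 collagens (30 principal components, 15 neighbours, Leiden resolution 1, igraph 0.11.9). A group was named "-like" with at least 3 markers raised 2-fold, 2 of them among its top 10 genes, and no other class with as many. Doublets were not called. Groups are given by up to 3 leading genes by fold over other cells, and some leading genes are not reported here. Genes named beside the members are the 5 most like each over E15.5 groups and the matrix genes past the threshold.

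Sums per section were tested with edgeR 4.0.16 (quasi-likelihood, TMM, sums of at least 30, Benjamini-Hochberg adjusted p under 0.05), tested on simulated data, with DESeq2 1.42.0 as an alternative. The E9.5 sections come from different embryos and E15.5 has 1 section, so the stage tests take their spread from the 2 E9.5 sections, pooled over genes. Cells are not replicates. Alternatives changed the scaling, the filters on genes, cells and volume, the areas of low Gnas, blank subtraction, the endothelial cells, the distances, the tiles and the sections left out.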

Additional observations from a re-analysis of the deposited data

Results flagged for a closer look

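Col1a2 near endothelial-like cells, within 20 µm, stood at 0.0326 times (2 counts, 0.00394 to 0.118) the level of farther cells in E9.5 section 1 and 0.348 times in section 2, and at 2.06 times in the E15.5 section. It is listed because, with the clustered endothelial-like cells as the reference, both E9.5 sections lay on one side and the E15.5 section on the other, and the difference itself was not tested. Without areas of low Gnas section 2 gave 0.393 times (0.340 to 0.453), and section 1 had 0 counts near and 671 far. With cells picked by marker counts as the reference, section 1 was at 1.05 times (0.778 to 1.39), section 2 at 0.556 times and E15.5 at 1.54 times, and section 1 then no longer lay below 1.

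A blank barcode reached 5005 CPM in the Lox and Unc5b group, where both fibrillar collagens were highest, against 225 CPM in all other E15.5 cells. It is listed because it is a signal outside the gene counts. The next blank code there was at 761 CPM, and blank counts were 0.884% of the group's total against 0.302% of the section's.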

How the results depend on the processing

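Of 229 comparisons with an alternative that left out no section, 191 kept their direction and their side of the threshold or stayed within the spread. Of the others, 7 were labelled reversed, 13 moved, 14 stronger and 4 weaker, and the cause was not tested. Between stages in all cells, leaving out areas of low Gnas gave -0.20 for Col1a2 and -0.39 for Col5a2 with 23 genes called, DESeq2 gave 2.60 for Col15a1 with 92 called, and upper-quartile scaling gave -1.92 for Col18a1 with 27 called. Between stages in endothelial-like cells, cells picked by marker counts gave -0.33 for Col5a2 and 1 gene called, and leaving out areas of low Gnas also 1. Between endothelial-like and other cells, Col1a2 was at -2.15 with upper-quartile scaling (17 called) and -2.42 with DESeq2 (39 called), Col18a1 at -0.017 without areas of low Gnas (4 called), and marker counts called 7. For the difference by stage, marker counts gave -0.26 for Col5a2 with 1 called, leaving out areas of low Gnas 0.10 for Col15a1, and DESeq2 called 9. Near against far, marker counts gave 0.14 for Col5a2 with 2 called, and moved the Col1a2 ratio to 1.05, 0.556 and 1.54 in E9.5 sections 1 and 2 and E15.5, and DESeq2 called 2. The E15.5 endothelial-like ratios with marker counts were 0.969, 0.855 and 2.01 for Col1a2, Col5a2 and Col18a1. At resolution 0.5 they were 1.27 for Col1a2, 0.971 for Col5a2, 1.77 for Col15a1 and 2.09 for Col18a1. Myh11 led an endothelial-like group of 21835 cells at that resolution. The fibrillar shares without areas of low Gnas, 69.6% and 52.5%, and the limit to E15.5 groups above their highest blank code were chosen after seeing the data; without that limit near cells were higher in 14, 15, 8 and 12 of 18 groups in gene order.

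Leaving out 1 section at a time gave these log2 ranges. Between stages they were -0.10 to 1.81 for Col1a2, -0.15 to 0.51 for Col5a2, 1.94 to 3.59 for Col15a1 and -2.13 to -2.04 for Col18a1, as values without a test. In endothelial-like cells Col18a1 ranged from -1.36 to 0.87; for the others section 1 held 0 counts, so only its removal was run, at 4.74, 0.37 and 2.48. Endothelial-like against other cells gave -3.51 to -1.29, -1.71 to 0.15, 0.68 to 2.36 and 0.13 to 1.36 in gene order, with 8 to 12 genes called; Col5a2 turned to 0.15 without E9.5 section 1. By stage, Col18a1 ranged from 0.52 to 2.83, and the others were at 2.72, -0.43 and -1.69 without section 1. Near against far gave -2.86 to -0.27, -1.23 to 0.69, -1.21 to -0.54 and -1.01 to 0.17, with 0 to 1 called; without E9.5 section 1 Col5a2 turned to 0.69 and Col18a1 to 0.17. No paired analysis was possible because the stages share only a number given in accession order and E15.5 has 1 section. Counts of 39 and 210 limit Col15a1 at E9.5, where its level over all kept cells lay among the blank codes in both sections. Outside areas of low Gnas section 1 was at 887 CPM, above its highest blank code there (623 CPM).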

Other observations

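The remaining collagen gene of the panel, Col4a1, had Spearman correlations over the 3240 E15.5 tiles of 0.57 and 0.56 with Col1a2 and Col5a2, 0.53 with Col15a1 and 0.38 with Col18a1. Over E15.5 groups it was second among the genes most like Col18a1.

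The Egfl8, Fabp7 and Adgrg6 subgroup of E15.5 endothelial-like cells (1319 cells) combined 18384 CPM of Col1a2 with 9457 CPM of Col18a1, both the highest of the 10 subgroups. Its 6 endothelial markers together were at 5136 CPM, against 65613 CPM in the Aplnr subgroup and 10261 to 54206 CPM in the others.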
